A study of Homo sapiens with 4 samples.

Results

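ATF4, CHOP (encoded by DDIT3) and 6 partners of the same stress response, ATF3, ATF5, CEBPB, CEBPG, TRIB3 and NUPR1, were followed in SKBR3 cells with and without extra VIRMA. They were chosen by name, as the ATF4-CHOP transcription factors and their cofactors, and all 8 were found among the 56271 rows of the count table. SKBR3 is an established line of HER2-positive breast cancer, and its poly-A-enriched RNA was sequenced in 4 libraries. Of these, 2 came from eGFP control cells, transduced with a lentivirus carrying eGFP behind the ubiquitin C promoter. The other 2 came from VIRMA-overexpressing cells, transduced with the same FUW vector carrying HA-tagged full-length VIRMA and eGFP separated by a P2A peptide. In both groups the eGFP-positive cells had been sorted and expanded, so that each group is a population of transduced cells that still carries its own VIRMA gene. VIRMA is a scaffold protein of the m6A (N6-methyladenosine) RNA methyltransferase, and the question was which stress factor mRNAs differ when it is raised.

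When eIF2alpha, a subunit of the factor that brings the initiator tRNA to ribosomes, is phosphorylated, most translation slows while the ATF4 mRNA is translated better, because short open reading frames upstream of its coding sequence are bypassed. This integrated stress response is triggered by unfolded proteins in the endoplasmic reticulum (ER), lack of amino acids or haem, and double-stranded RNA. ATF4 is a basic leucine zipper (bZIP) factor that binds DNA as a dimer, often with a C/EBP protein, and it activates amino acid synthesis genes and the gene of CHOP, a C/EBP relative linked to cell death under lasting stress. The measurements below are of mRNA alone, and protein or phosphorylation of these factors was not analysed here.

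The libraries held 81446932 to 86375474 counts, and mitochondrial genes took 11.4% to 12.8% of them. VIRMA, listed under its older symbol KIAA1429, had 710 and 682 counts in the eGFP control libraries and 3437 and 3460 in the VIRMA-overexpressing libraries, which fits the labels (log2 fold change 2.29, SE 0.0685, edgeR adjusted p 9.74e-26). Of 10 luminal markers, 9 were expressed, with ERBB2, the HER2 gene, at 679.7 ± 11.3 RPKM in the controls against 679.2 ± 0.0771 RPKM in the VIRMA-overexpressing cells (SD, n = 2), while CDH1 was near 0. At an edgeR adjusted p below 0.05, 5 of the 9 rose and 3 fell, beside 35.1% and 35.9% of all tested genes. The largest changes (log2 fold change) were those of AGR2 (0.97), ELF3 (0.57), KRT8 (-0.51) and GRB7 (0.43). Of 9 stromal, basal and hormone receptor markers, 1, COL1A1, passed the filter on low values. Of 9 erythroid markers, 1 passed it, HBB, with 2137 and 1543 counts in the controls but none, 0, in either library of VIRMA-overexpressing cells. The labels of all 4 samples mention growth in a hypoxia chamber, whereas the study treats its RNA sequencing as ordinary culture, so the oxygen level is uncertain. Of 20 hypoxia-induced genes, 16 were tested, and 5 rose and 8 fell at an edgeR adjusted p below 0.05, where 35.1% of all tested genes rose and 35.9% fell. VEGFA, an angiogenic factor, rose (log2 fold change 1.28), and ADM (-1.29), EGLN3 (-0.99) and LDHA (-0.86) fell. VEGFA is also counted among the ATF4-CHOP target genes below, and EGLN3 among the genes of ATF4 translation and turnover.

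Of the 8 stress factor mRNAs, 7 rose in VIRMA-overexpressing cells at an edgeR adjusted p below 0.05, and 5 of these also had a log2 fold change above 1: DDIT3, NUPR1, CEBPG, ATF3 and TRIB3. ATF4 and CEBPB rose by less than 2-fold, and ATF5 did not pass. Over all 12205 genes tested, 35.1% were higher and 35.9% lower at the adjusted p alone, and 4.52% were higher and 2.93% lower past both thresholds. When the change itself was tested against 2-fold, the same 5 mRNAs passed, where 1.55% of all tested genes passed upward. All 8 passed the filter on low values, an RPKM above 1 in at least 2 libraries, in both groups. The median log2 fold change was 1.35 over the 8 and 0.0121 over all tested genes. Counts are shares of a library's RNA, so more cells with an mRNA and more of it per cell cannot be told apart. Levels are given as RPKM, read counts scaled for exonic length and for library size with TMM factors, when genes are compared.

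**Figure D1:**
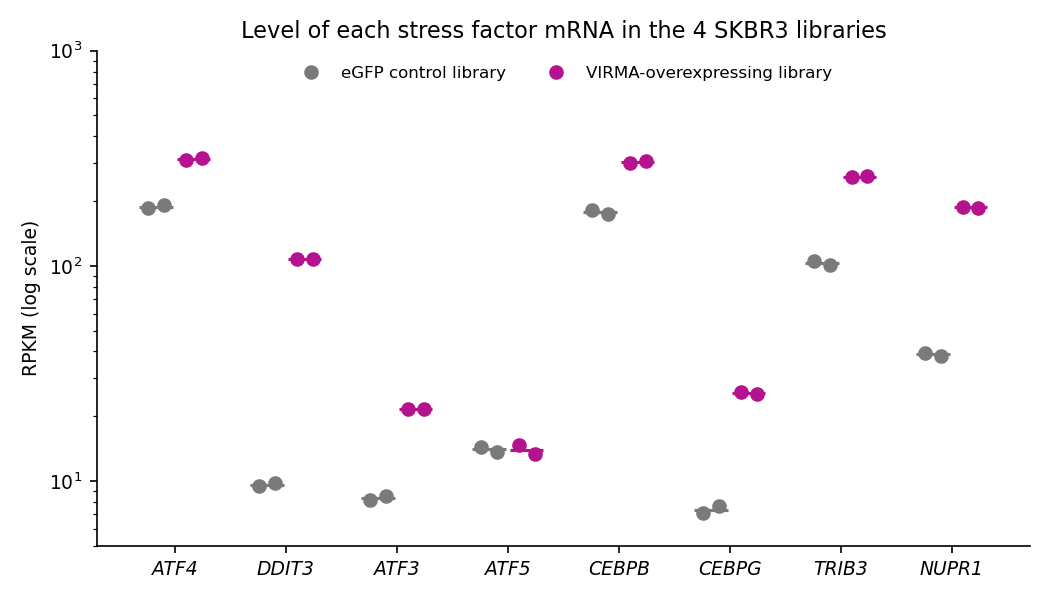
RPKM (log axis) of the 8 stress factor mRNAs in each of the 4 libraries. Points are libraries and short lines are the means of 2 libraries. Both VIRMA-overexpressing points lie above both eGFP control points for 7 mRNAs, and the points of ATF5 overlap between 13.3 and 14.6 RPKM. Among all tested genes, 42.7% had both VIRMA-overexpressing libraries above both controls and 41.6% had both below.

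ATF4 lies on chromosome 22, 39519695 to 39522685, plus strand (GRCh38), in 3 merged exons. It stood at 186.2 and 190.9 RPKM in the eGFP control libraries and at 309.5 and 318 RPKM in the VIRMA-overexpressing libraries. The groups did not overlap, and the mRNA was 1.66-fold higher (log2 fold change 0.73, SE 0.0282, edgeR adjusted p 1.53e-22). It was the most abundant of the 8 in every library, above 98.4% of the tested genes in both controls and above 99.1% in both VIRMA-overexpressing libraries. Its change was smaller than those of DDIT3, NUPR1, CEBPG, ATF3 and TRIB3. It was close to that of CEBPB (log2 fold change 0.77), while ATF5 did not pass. Among the tested genes, 1177 had a larger log2 fold change than ATF4.

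DDIT3 encodes CHOP, the C/EBP relative whose dimers are kept from most C/EBP sites. The gene lies on chromosome 12, 57516588 to 57520517, minus strand. Control libraries gave 994 and 1036 counts of it, and VIRMA-overexpressing libraries gave 11635 and 11364. In RPKM these were 9.44 and 9.78 against 107.3 and 107.4. Every VIRMA-overexpressing value was thus far above both controls, while the replicates of each group were close together. The mRNA was 11.2-fold higher (log2 fold change 3.48, SE 0.0462, edgeR adjusted p 3.2e-36), and 16 of the 12205 tested genes had a larger log2 fold change. DDIT3 was above 66.6% and 67.5% of the tested genes in the controls against above 97.4% and 97.3% in the VIRMA-overexpressing libraries.

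ATF3, a bZIP factor induced by many stresses that represses as a homodimer and pairs with JUN proteins, lies on chromosome 1, 212565334 to 212620777, plus strand. It stood at 8.17 and 8.52 RPKM in the controls against 21.5 and 21.6 RPKM in the VIRMA-overexpressing libraries. The groups were far apart (log2 fold change 1.37, SE 0.0435, edgeR adjusted p 5.44e-25).

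ATF5, the closest relative of ATF4, is also translated better when eIF2alpha is phosphorylated and is known for the stress response of mitochondria. It lies on chromosome 19, 49928702 to 49933935, plus strand. It stood at 14.4 and 13.6 RPKM in the controls against 14.6 and 13.3 RPKM in the VIRMA-overexpressing libraries. The groups overlapped, and ATF5 did not pass (log2 fold change -0.0042, SE 0.0524, edgeR adjusted p 0.948), with a sign that turned under upper-quartile factors and library totals. The fitted ratio was 0.997, with a 95% interval of 0.929 to 1.07. ATF5 exons overlap those of NUP62, a nuclear pore gene on the opposite strand, over 626 bases, or 21.2% of the exonic length of ATF5. Whether strand was used in counting is not given in the sources used here, and NUP62 fell (log2 fold change -0.42, SE 0.037, edgeR adjusted p 2.3e-12). Its part in the ATF5 value was not tested. IL4I1, also antisense, overlaps ATF5 over 75 bases and had 37 to 83 counts per library.

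CEBPB and CEBPG encode C/EBP proteins that pair with ATF4 or CHOP. CEBPG lacks an activation domain of its own. CEBPB, a gene of 1 exon on chromosome 20, 50190734 to 50192689, plus strand, stood at 182.1 and 174.8 RPKM in the controls against 301.6 and 306.2 RPKM in the VIRMA-overexpressing libraries. It was 1.7-fold higher (log2 fold change 0.77, SE 0.0294, edgeR adjusted p 1.53e-22), with groups that did not overlap. The antisense gene CEBPB-AS1 covers 231 bases of it and had 113 to 303 counts per library, against at least 28608 for CEBPB.

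CEBPG, on chromosome 19, 33373330 to 33382686, plus strand, stood at 7.07 and 7.61 RPKM in the controls against 26 and 25.4 RPKM in the VIRMA-overexpressing libraries. It was the lowest of the 8 in the controls and rose 3.5-fold (log2 fold change 1.81, SE 0.0431, edgeR adjusted p 9.26e-29).

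TRIB3 encodes a pseudokinase that is made under stress, binds ATF4 and CHOP and restrains them. It lies on chromosome 20, 362835 to 397559, plus strand. It stood at 105.7 and 101.2 RPKM in the controls against 258.7 and 261.4 RPKM in the VIRMA-overexpressing libraries. The groups did not overlap, and the mRNA was 2.51-fold higher (log2 fold change 1.33, SE 0.0289, edgeR adjusted p 5.23e-30). The related pseudokinase genes TRIB1 (log2 fold change -0.05, edgeR adjusted p 0.365) and TRIB2 (-0.22, edgeR adjusted p 0.0844) did not pass.

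NUPR1, a small chromatin-bound stress protein and transcriptional cofactor, lies on chromosome 16, 28532708 to 28539174, minus strand. Its counts were 18551 and 18147 in control libraries against 91246 and 88410 with extra VIRMA, the most of the 8 in the latter. In RPKM these were 39.3 and 38.2 against 187.8 and 186.4, a 4.83-fold rise (log2 fold change 2.27, SE 0.0291, edgeR adjusted p 2.3e-36). NUPR1 gained the most CPM (counts scaled for library size with TMM factors, without division by length), 841.7. TRIB3 was next at 537.9, with ATF4 at 314.8 and CEBPB at 245.4, although DDIT3, with a gain of 123.7, had the largest fold change.

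**Figure D2:**
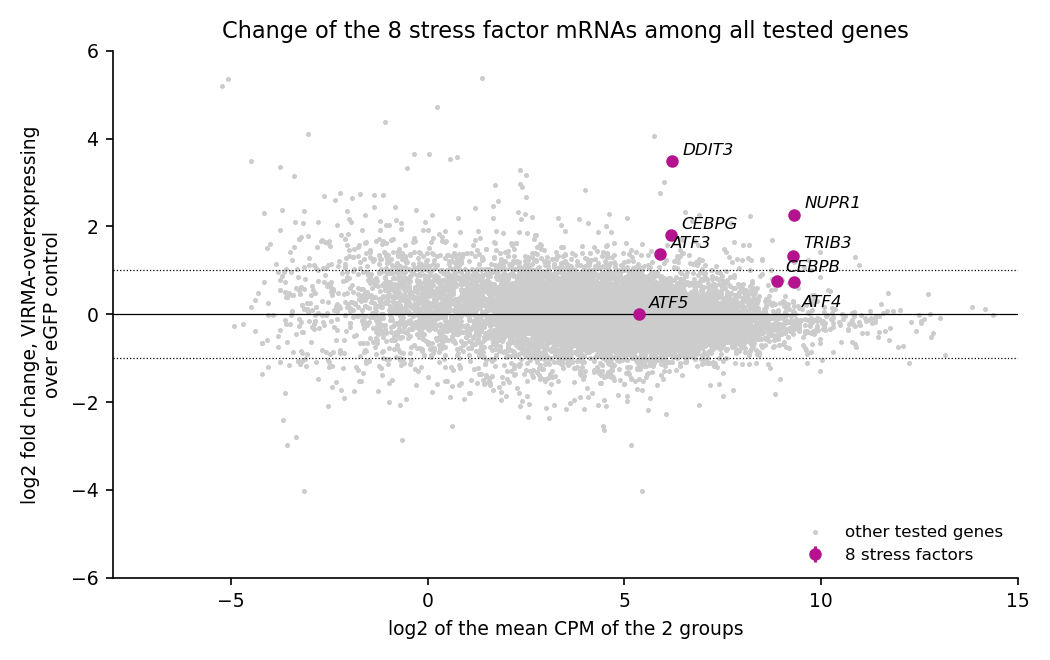
Log2 fold change (vertical axis, VIRMA-overexpressing over eGFP control) against the log2 of mean CPM (horizontal axis) of the tested genes, with the 8 stress factors in magenta and bars of 1 SE that are shorter than the points. Dotted lines mark log2 fold changes of 1 and -1, and 7 other genes lie outside the axes. DDIT3 (3.48) and NUPR1 (2.27) stand highest among the 8, and ATF5 lies on the zero line.

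A CARE (C/EBP-ATF response element) is the sequence at which a dimer of ATF4 and a C/EBP protein can bind. Its letters TGATGCAA, on either strand, were searched in the 1000 bases before the start of the GENCODE canonical transcript of each gene, since 7 of the 8 mRNAs rose. They were found for DDIT3, ATF3 and NUPR1, 3 of the 8, against 2.13% of 20046 protein-coding genes and 1.69% of the 9518 that were tested. ATF3 had 2 matches. The stretches are shown 5′ to 3′ on the strand of the gene, read from GRCh38, with the matched letters in capitals (TTGCATCA is the same element read on the other strand).

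DDIT3, chr12:57520804-57520829, minus strand, first matched letter 306 bases before the start: tgccaaacaTTGCATCAtccccgccc

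ATF3, chr1:212608549-212608574, plus strand, 203 bases before the start: tccccgaacTTGCATCAccagtgccc

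ATF3, chr1:212608731-212608756, plus strand, 21 bases before the start: taaaaggggTGATGCAAcgctctcca

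NUPR1, chr16:28539049-28539074, minus strand, 91 bases before the start: ggggccagaTTGCATCAgacagggcc

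The looser letters TGATGNAA, which include the former, were found in the same 3 members and in 8.95% of the tested protein-coding genes. RefSeq windows of 250 bases before to 50 bases after each start (GRCh38.p14) were listed for 7 of the 8, without NUPR1. There TGATGNAA was found for ATF3 and CEBPG, against 4.46% of 27305 genes. The CEBPG match lay 42 bases before the second of its listed starts, and that of ATF3 at another start than above.

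CEBPG, chr19:33374062-33374087, plus strand: cgcggcgtcTGATGCAAcctgccggc

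ATF3, chr1:212565207-212565232, plus strand: aggtcaggaTGATGGAAggctgtcat

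The CRE letters TGACGTCA, at which CREB and ATF factors bind, were found in these windows for 0 of the 7 members and for 2.25% of the genes. A match describes letters and not a bound site. In the upstream kilobase, members with a match had log2 fold changes of 3.48, 1.37 and 2.27, and those without of -0.0042 to 1.81. The 1.81 is that of CEBPG, which had a match in its RefSeq window, so the split depends on the start used. Any link between matches and changes was not tested.

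The balance between the 8 mRNAs differed between the groups, as seen in ratios within a library, where scaling drops out. CEBPB per ATF4, in RPKM, was 0.978 and 0.916 in the controls against 0.975 and 0.963 in the VIRMA-overexpressing libraries, values that overlap. DDIT3 per ATF4 was 0.0507 and 0.0512 in the controls against 0.347 and 0.338 in the VIRMA-overexpressing libraries, 6.71 times higher. NUPR1 per ATF4 was 2.9 times higher, CEBPG 2.11 times, ATF3 1.55 times and TRIB3 1.51 times, each with groups that did not overlap. ATF5 per ATF4 was 0.0744 ± 0.0044 in the controls against 0.0446 ± 0.00381 in the VIRMA-overexpressing cells (SD, n = 2). For such a ratio the exact permutation test (two-sided) cannot give a p below 0.33 with 2 libraries a group, and it gave 0.33 for the other 6 ratios and 1 for CEBPB per ATF4.

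TRIB3, the restraining pseudokinase, was 10.8 ± 0.597 times the level of DDIT3 in the controls against 2.42 ± 0.0169 times in the VIRMA-overexpressing cells (RPKM ratio, SD, n = 2). The summed level of the 8 mRNAs went from 548.4 ± 5.55 to 1233 ± 8.91 RPKM. Of this sum ATF4 and CEBPB held 34.4% and 32.5% in the controls against 25.4% and 24.6% in the VIRMA-overexpressing cells, while DDIT3 went from 1.75% to 8.70% and NUPR1 from 7.07% to 15.2%. The 8 mRNAs took 0.147% of all counts in the controls against 0.383% in the VIRMA-overexpressing libraries.

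In the controls the order of levels per length was ATF4, CEBPB, TRIB3, NUPR1, ATF5, DDIT3, ATF3 and CEBPG. In VIRMA-overexpressing cells DDIT3, ATF3 and CEBPG stood above ATF5, and CEBPG above ATF3, to give ATF4, CEBPB, TRIB3, NUPR1, DDIT3, CEBPG, ATF3 and ATF5. No neighbours in either order overlapped between their 2 libraries. The order depends on the length used, since the table merges the exons of all transcripts. With the canonical transcript length, chosen after the data were seen, ATF3 (17.4 RPKM) stood above DDIT3 (13.5 RPKM) in the controls, and TRIB3 (379.1 RPKM) above CEBPB (323.2 RPKM) and ATF3 (44.9 RPKM) above CEBPG (30.4 RPKM) in the VIRMA-overexpressing cells.

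CHOP and CEBPG belong to the C/EBP family, whose proteins pair with each other. The summed RPKM of its 6 genes was 215.8 and 209.9 in the controls against 452.2 and 456.2 in the VIRMA-overexpressing libraries. DDIT3 made up 4.37% and 4.66% of this sum in the controls against 23.7% and 23.5% in the VIRMA-overexpressing libraries, and CEBPG 3.45% ± 0.247 and 5.66% ± 0.125 (SD, n = 2). CEBPB held 83.8% ± 0.802 in the controls against 66.9% ± 0.289 in the VIRMA-overexpressing cells, although its own level rose. CEBPD, a factor of inflammation and differentiation, stood at 16.2 ± 0.107 and 15.7 ± 0.137 RPKM and did not pass (log2 fold change -0.04, edgeR adjusted p 0.511). CEBPA, which drives differentiation of fat and myeloid cells, did not pass either (0.22, edgeR adjusted p 0.297), and CEBPE, a myeloid factor, was at or near 0. CEBPZ, which shares the name but is no bZIP factor, was at -0.09 (edgeR adjusted p 0.472).

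**Figure D3:**
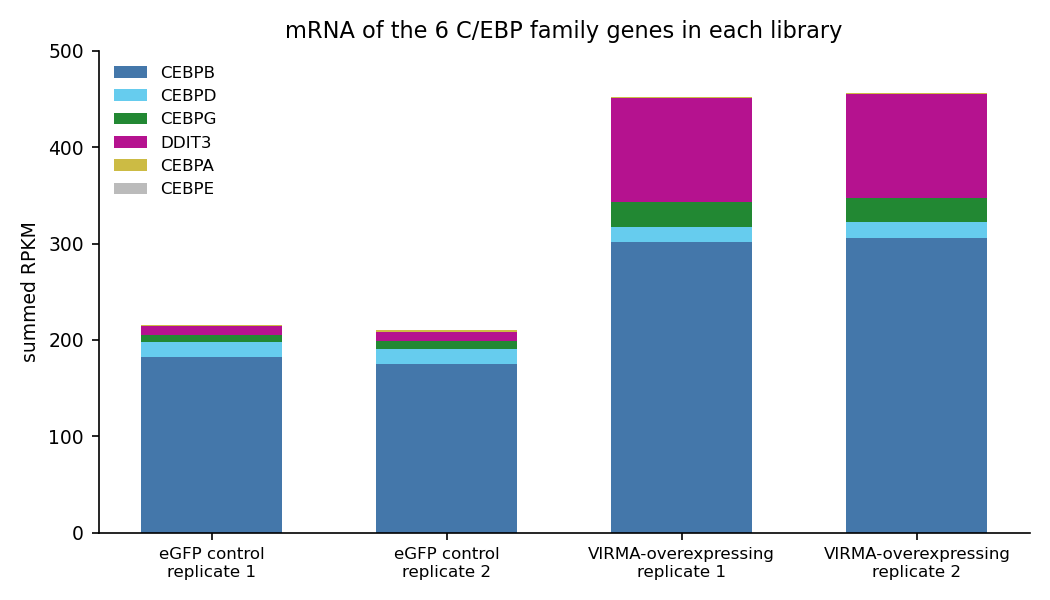
Stacked bars of the RPKM (linear axis) of the 6 C/EBP family genes in each library. The bars reach 215.8 and 209.9 in the eGFP control libraries and 452.2 and 456.2 in the VIRMA-overexpressing libraries, and the DDIT3 segment is 4.37% and 4.66% of the former and 23.7% and 23.5% of the latter.

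The other bZIP factors were read from the same fit. Of 48 listed, CEBPZ included, 35 were tested, of which 19 rose and 5 fell at an edgeR adjusted p below 0.05. At that threshold 35.1% of all tested genes rose and 35.9% fell. Past both thresholds 0 were higher and 1, FOSB, was lower, beside 4.52% and 2.93% of all tested genes. The median log2 fold change of the 35 was 0.15, against 0.0121 over all tested genes. Both VIRMA-overexpressing libraries were above both controls for 20 of the 35 and below for 9, against 42.7% and 41.6% of all tested genes. The same held for 7 of the 8 stress factors upward and for 0 downward.

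Among the CREB and ATF factors, 10 of 13 tested rose and 0 fell, beside the same 35.1% and 35.9% of all tested genes. ATF6, the ER membrane factor of the unfolded protein response, rose by a log2 fold change of 0.94 (SE 0.0532), CREB1, the cyclic AMP factor, by 0.88 (SE 0.0716), CREB3L1, an ER-bound factor of secretory cells, by 0.87 (SE 0.0832) and ATF2, a stress kinase target, by 0.84 (SE 0.0987). XBP1, whose spliced mRNA encodes another factor of the unfolded protein response, was at 232.5 ± 1.61 and 251.1 ± 0.298 RPKM (log2 fold change 0.11, edgeR adjusted p 0.000441). Spliced and unspliced XBP1 are not separated in counts per gene.

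Among AP-1 factors, the possible partners of ATF3, 2 of 8 tested rose and 5 fell, beside 35.1% and 35.9% of all tested genes. FOSB went from 64.1 ± 3.13 to 8.11 ± 0.38 CPM (log2 fold change -2.98, SE 0.062), JUN from 311.5 ± 9.43 to 173.6 ± 1.73 CPM (-0.84, SE 0.0319) and FOS from 322.3 ± 1.26 to 221.1 ± 0.769 CPM (-0.54, SE 0.0303), whereas FOSL2 rose (0.30, SE 0.0404). Of the MAF, CNC and BACH factors, which govern antioxidant and proteasome genes, 6 of 8 tested rose and 0 fell, beside the same shares. These 6 were led by NFE2L1 (0.89, SE 0.0355), NFE2L2 (0.55, SE 0.0693), MAFF (0.49, SE 0.0512) and BACH1 (0.36, SE 0.0853). Of the PAR and NFIL3 factors of the circadian clock, NFIL3 rose (0.69, SE 0.0939) and the other 2 tested did not pass.

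Upstream of ATF4, the genes of the eIF2alpha kinases, eIF2, its exchange factor eIF2B and the eIF2alpha phosphatase were read next. Of 20, all tested, 9 rose and 9 fell, beside 35.1% and 35.9% of all tested genes, and the median log2 fold change was -0.0034. PPP1R15A, the stress-induced phosphatase subunit that CHOP activates, went from 40.7 ± 0.159 to 133.5 ± 1.41 CPM and passed both thresholds (log2 fold change 1.71, SE 0.0391, edgeR adjusted p 2.61e-29). DNAJC3, which inhibits eIF2alpha kinases, rose by 0.95 (SE 0.0395), EIF2AK3, the ER kinase PERK, by 0.89 (SE 0.0723) and IMPACT, an inhibitor of the amino acid sensing kinase, by 0.68 (SE 0.0889). Smaller changes that passed included those of the kinase genes EIF2AK1 (0.32, edgeR adjusted p 8.38e-12) and EIF2AK4 (-0.26, edgeR adjusted p 6.37e-05). PPP1R15B (0.58), EIF2S2 (0.44) and EIF2S3 (0.15) also rose past it. Of the eIF2B genes, EIF2B1 (-0.21), EIF2B2 (-0.30), EIF2B3 (-0.13) and EIF2B5 (-0.27) fell, and EIF2B4 did not pass (0.02, edgeR adjusted p 0.647). GCN1 fell as well (-0.14). The substrate gene EIF2S1 fell too (-0.31, edgeR adjusted p 1.64e-08), and the kinase gene EIF2AK2 did not pass (-0.03, edgeR adjusted p 0.645). Of the catalytic phosphatase subunits, PPP1CA (-0.68) and PPP1CC (-0.56) fell and PPP1CB rose (0.17, edgeR adjusted p 2.43e-05).

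Of 15 genes of ATF4 translation and turnover, all tested, 6 rose and 2 fell, beside the same 35.1% and 35.9% of all tested genes, with a median of 0.117. EGLN3, a prolyl hydroxylase that can act on ATF4, fell by 0.99 on the log2 scale (SE 0.0995). EIF1, a start codon selection factor, rose by 0.52 (SE 0.0255), EIF2A, an alternative initiation factor, by 0.29 (SE 0.0526) and RPS6KA3, a kinase that phosphorylates ATF4, by 0.28 (SE 0.0726). EP300, an acetyltransferase that stabilises ATF4, was at 0.28 (SE 0.0461, edgeR adjusted p 1.96e-06).

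Downstream, 49 of 50 listed ATF4-CHOP target genes were tested, and INHBE, a hormone subunit, was under the filter. PPP1R15A, also among the upstream genes above, and JDP2, also among the AP-1 factors, are counted here again. At an edgeR adjusted p below 0.05, 47 rose and 0 fell, beside 35.1% and 35.9% of all tested genes. Of the 47, 29 were past both thresholds, where 4.52% of all tested genes were higher. These 29 include CBS, SLC7A11, STC2, FGF21, VLDLR and PMAIP1, which were under an RPKM of 1 in both controls. They passed the filter on low values only through the VIRMA-overexpressing libraries, so the filter itself favoured a rise for them. The median log2 fold change of the 49 was 1.16, against 0.0121 over all tested genes. The tested targets that did not pass were ALDH18A1, an enzyme of proline synthesis (-0.03, edgeR adjusted p 0.561), and BCL2L11, a death factor of the BCL2 family (0.11, edgeR adjusted p 0.098). These lists were written with earlier results of these data known, so their counts are descriptions.

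Of the 28 amino acid targets, 27 rose, where 35.1% of all tested genes did, with a median of 1.03. CBS, an enzyme of the transsulfuration route to cysteine, went from 1.14 ± 0.0458 to 8.96 ± 0.14 CPM (log2 fold change 2.98), SLC7A11, the cystine importer, from 3.94 ± 0.568 to 28 ± 0.235 CPM (2.83), ASNS, asparagine synthetase, from 102.8 ± 0.291 to 485.1 ± 3.97 CPM (2.24) and WARS, a tRNA synthetase, from 42.8 ± 1.18 to 137.3 ± 2.32 CPM (1.68). Of the 21 tested targets of stress feedback and death, 20 rose, beside the same 35.1%, with a median of 1.28. GDF15, a stress hormone (4.06), FGF21, another one (3.65, at 0.15 and 1.89 CPM), CHAC1, which degrades glutathione (2.75), and STC2, a secreted glycoprotein (2.67), led this list. Among its death genes, TNFRSF10B, the death receptor DR5, was at 1.57 (SE 0.0431), PMAIP1 at 1.31 (SE 0.242) and BBC3 at 0.42 (SE 0.0575). PMAIP1 was low, at 1.04 CPM in the controls against 2.59 CPM, and did not pass when tested against 2-fold (edgeR adjusted p 0.727).

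**Figure D4:**
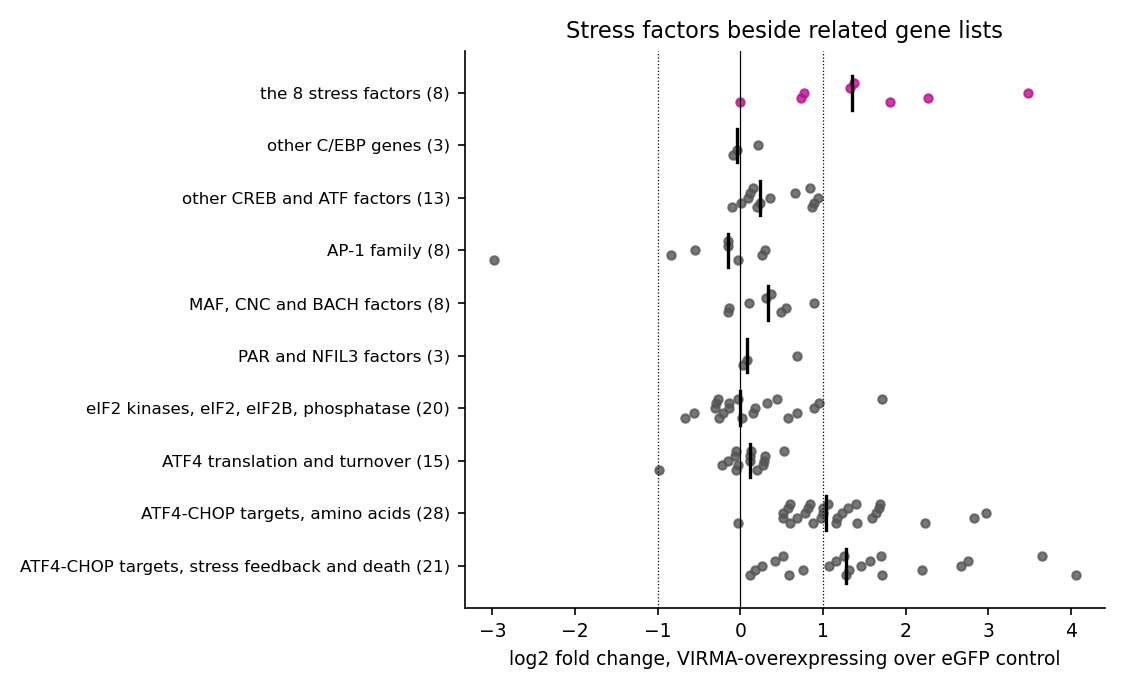
Log2 fold change (VIRMA-overexpressing over eGFP control) of each tested gene in the 8 stress factors and in the related lists, with the number of tested genes in brackets, the median as a black bar and dotted lines at 1 and -1. The median is 1.35 for the 8 stress factors, 1.03 and 1.28 for the target lists and between -0.148 and 0.334 for the other lists. Vertical scatter within a list only separates points.

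For each of the 8 mRNAs the 2 tested genes with the most similar pattern were taken, by the Euclidean distance of log2 CPM over the 4 libraries, each gene centred on its own mean. With 4 libraries in 2 groups this likeness is mostly that of the fold change. ASNS (distance 0.0469) and VIRMA itself (0.0464) were nearest to NUPR1. GFPT1, the entry enzyme of the hexosamine pathway (0.0284), and ERRFI1, an inhibitor of ERBB receptors (0.0484), were nearest to ATF3. LCN2, an iron carrier protein (0.0866), and the clone-named RP13-608F4.5 (0.0896) were nearest to CEBPG. SLC46A3 (0.0235) and STAG3L5P (0.0236) were nearest to ATF4, RALGAPA1 (0.011) and PGGHG (0.0158) to CEBPB, SYTL1 (0.0178) and PLEKHG1 (0.0207) to TRIB3, and ASXL2 (0.0132) and DIRAS1 (0.0136) to ATF5. For DDIT3 the nearest were short, low features, RNU7-38P, 60 bases long with 0 counts in both controls and 5 in each VIRMA-overexpressing library, and AC079781.5, 123 bases long (0.19). The distance used an offset of 0.5 counts, which sets the control value of RNU7-38P. Its fitted log2 fold change was 5.35 (SE 2.68) and did not pass (edgeR adjusted p 0.0742), so it is no close likeness of DDIT3.

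Replicates of the 8 were close. The absolute log2 difference between replicates ran from 0.0358 to 0.106 in the controls, and with VIRMA overexpressed from 0.000703 to 0.135, against medians of 0.0661 and 0.0638 over all tested genes. The largest of these, 0.135, was that of ATF5. Whether the replicates of a group came from separate transductions is not stated, and the extra VIRMA and any other difference between these transduced populations cannot be told apart.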

How the data were processed

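Per the study's methods and the submitters' processing notes, reads were trimmed with Trimmomatic 0.39, aligned to GRCh38 (Ensembl annotation) with STAR 2.5.2a and counted with featureCounts. The authors deposited raw counts per gene for 4 libraries, with exonic lengths. The strand setting and the handling of reads with several alignments are not given in the sources used here. Column names gave the control group directly, and the numbered pair of columns was taken as VIRMA-overexpressing, being the remaining group. Among the symbols, 4 rows shared a name with another row and were kept apart by position.

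Genes with RPKM above 1 in at least 2 libraries were tested by quasi-likelihood F-tests (edgeR 4.0.16, R 4.3.3). TMM scaling was used, the model held only the group, and p-values were adjusted over all 12205 genes by Benjamini-Hochberg. Thresholds were an adjusted p below 0.05 and, where said, a log2 fold change above 1 or below -1. SE was obtained as |log2 fold change| over the root of the F statistic. CPM and RPKM use TMM-scaled totals and are given as mean ± SD over 2 libraries. Genes were named by rule: all members, up to 4 genes of each list with the largest absolute change past the adjusted p, and the 2 nearest patterns. Genes given to account for whole families were added after their values were seen. Members and lists were chosen with earlier results of these data known. Alternatives included DESeq2 1.42.0, limma-voom 3.58.1, other scalings and filters, a replicate block and leaving out each library. Promoter windows are those of RefSeq, and upstream sequence was read from GRCh38. The replicates are biological duplicates per the methods; whether they came from separate transductions is not stated, so p-values measure the spread between these libraries.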

Additional observations from a re-analysis of the deposited data

How the results depend on the processing

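The 7 stress factor mRNAs that rose stayed higher and past the adjusted p of 0.05 under every alternative run other than the test against 2-fold, where ATF4 (0.73) and CEBPB (0.77) did not pass by construction. ATF5 turned positive under upper-quartile scaling (0.068) and under plain library totals (0.079), where the all-gene median moved by 0.0715 and 0.0835, and ran from -0.054 to 0.092 when a library was left out, without passing. Higher and lower genes past both thresholds came to 1044 and 808 after filterByExpr, 1137 and 820 unfiltered, and 930 and 689 when every library needed 10 counts, since 20568, 33976 and 17791 genes were then tested, and 189 and 173 when tested against 2-fold. Leaving out a library gave 308 to 570 higher genes (308 without VIRMA-overexpressing replicate 1, 356 without replicate 2) and 289 to 345 lower genes, with the lone library assumed to vary like the others. Tested against 2-fold, where 1.55% of all tested genes passed upward, the 35 other bZIP factors gave 0 higher and 1 lower. The 49 target genes gave 25 higher, the 20 upstream genes 1 and 0, and the 15 turnover genes 0 and 0. Lower bZIP factors fell to 3 with library totals, and lower turnover genes to 1 with upper-quartile factors and with library totals. The change of the CEBPB to ATF4 ratio ran from 0.99 to 1.06 when a library was left out, and that of the DDIT3 share of the C/EBP family was 5.47 in CPM in place of 5.23 in RPKM. Same-numbered libraries did not deviate together (correlation 0.026), so the numbers gave no pairing. With the replicate block, 7 of the 8 stress factors passed the adjusted p, at which 35.1% of all tested genes were higher in the main fit. Of the 8, 5 passed both thresholds, where 541 of the 12205 tested genes were higher and 356 lower with the block. DDIT3 stayed at 3.48. With canonical transcript lengths, an alternative chosen after seeing the data, the log2 RPKM ratio reversed for DDIT3 over ATF3 in the controls (from 0.20 to -0.37) and, in VIRMA-overexpressing cells, for CEBPB over TRIB3 (from 0.22 to -0.23) and CEBPG over ATF3 (from 0.25 to -0.56).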
